A study of Rattus norvegicus with 6 samples.

Results

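The cadherin and protocadherin genes of cultured neural progenitors from the rat cortex were examined by their mRNA levels. Members were all gene names in the deposited tables that begin with Cdh and a digit or with Pcdh, which gave 68 of 17337 gene names. They were 19 cadherins and 49 protocadherins, and of the protocadherins 10 lie outside the gene clusters while 15 belong to *Pcdha*, 11 to *Pcdhb* and 13 to *Pcdhg*. Genes of the family under other names, and *Cdh4*, *Cdh12*, *Cdh18*, *Cdh24*, *Pcdh1* and *Pcdh10*, were not analysed here.

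All samples came from the cortices of Sprague Dawley rat embryos at embryonic day 14, with no mutation or treatment that set groups apart. The cells were expanded in a neural supplement with bFGF and EGF, each at 20 ng/ml, and were harvested after being passaged for the second time. The polyA RNA data hold 2 biological replicates, named A and B, split into the technical libraries A1 and A2 for A and B1 and B2 for B, and the 2 samples of Start-seq, which maps capped short RNA, were not used here. There was 1 condition, so the levels are described without a test, and A and B are set side by side only to show the spread.

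Cadherins are calcium-dependent adhesion proteins of the cell surface. The classical ones bind their like on the neighbouring cell and hold the actin cytoskeleton through catenins, and in the ventricular zone of the developing cortex N-cadherin keeps the apical junctions of the progenitors. Protocadherins lack the catenin-binding tail. Those of the 3 clusters are chosen by alternative promoters in single neurons and give neurites a surface identity, while the delta-protocadherins outside the clusters act in cell sorting, motility and axon growth.

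The mRNA level is given as FPKM, the fragments scaled to the transcript's length and the library's depth, and a mean is over the 2 biological replicates with the technical libraries averaged first. A mean of at least 1 FPKM was reached by 30 of the 68 members, or 44.1%, against 60.5% of all gene names. A mean of at least 10 FPKM was reached by 10 members. Of the 68, 62 were above 0 in every library, and 1, *Pcdh12*, was listed at 0 in all 4. Coverage per unit of FPKM, which follows depth, was between 22.7 and 24.4 in A1, A2 and B1 but 6.83 in B2, 28.1% of that in B1, so low values of B2 rest on fewer reads.

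The 10 markers of neural progenitors were all above a mean of 1 FPKM, with a summed level of 21180 and 23262 FPKM in A1 and A2 and of 10193 and 10987 FPKM in B1 and B2. The lower sum in B came mainly from *Fabp7*, a fatty acid binding protein of radial glia. *Fabp7* was then left out, after its values were seen. The other 9 markers summed to 4380, 4705, 3674 and 5502 FPKM in A1, A2, B1 and B2. These sums overlapped between the replicates, but most of each was *Vim*, at 2882, 3171, 2652 and 4458 FPKM. *Sox2*, *Hes1*, *Hes5*, *Notch1* and *Sox9* each had both A libraries above both B libraries, while *Nes*, *Vim*, *Slc1a3* and *Pax6* overlapped. The 10 meningeal and mesenchymal markers were also all above 1 FPKM, with sums of 677 and 657 FPKM in A and 2506 and 3029 FPKM in B. The 10 endothelial and the 8 microglial markers each had a mean below 1 FPKM. The labelled cell type therefore showed its markers in every library, beside mesenchymal ones that were higher in both B libraries. In bulk RNA, fewer cells of a type and less RNA per cell cannot be told apart.

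Of the classical cadherins of type I, *Cdh2* was the only one of 4 with a mean of at least 1 FPKM. *Cdh2*, which encodes N-cadherin, is found at 8146971 to 8366025 of chromosome 18 (rn6, minus strand). Libraries A1 and A2 gave 72.0 and 76.5 FPKM and libraries B1 and B2 gave 63.6 and 67.4 FPKM, a mean of 69.9 ± 6.20 FPKM (SD, n = 2). Both A libraries were above both B libraries, but the difference was small, at -0.18 on the log2(FPKM + 1) scale. The other members of type I were far lower. *Cdh3*, which encodes P-cadherin, had 0.171 and 0.117 FPKM in A and 1.42 and 1.12 FPKM in B. The muscle cadherin gene *Cdh15* had a mean of 0.262 ± 0.0578 FPKM (SD, n = 2). *Cdh1*, which encodes the epithelial E-cadherin, had a mean of 0.0604 ± 0.0489 FPKM (SD, n = 2) and a highest library, B2, of 0.140 FPKM. Beside it, the mean of *Epcam*, an epithelial surface marker, was 0.187 FPKM.

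The type II cadherins, the other classical class, had 5 of 10 members above a mean of 1 FPKM. *Cdh11* was the highest of them. This gene, known from mesenchymal cells and from the developing brain, is found at 2393059 to 2551245 of chromosome 19 (rn6, plus strand). Libraries A1 and A2 gave 27.3 and 26.5 FPKM, and B1 and B2 gave 71.9 and 60.5 FPKM. Both B libraries lay well above both A libraries, and the mean was 46.6 ± 27.8 FPKM (SD, n = 2). The replicate mean of B was 2.46-fold that of A, a difference of 1.26 on the log2(FPKM + 1) scale.

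*Cdh20* had 22.4, 23.9, 24.5 and 17.8 FPKM in A1, A2, B1 and B2, a mean of 22.2 ± 1.44 FPKM (SD, n = 2), and its A and B libraries overlapped. *Cdh10* had 22.7, 25.2, 20.9 and 13.3 FPKM, a mean of 20.5 ± 4.82 FPKM (SD, n = 2). For *Cdh10* both A libraries were the higher ones, by 0.49 on the log2 scale when A and B are averaged, which is below the size counted as a difference here. *Cdh22* had 13.4, 14.1, 17.2 and 13.1 FPKM, a mean of 14.4 ± 0.989 FPKM (SD, n = 2), and its replicates overlapped. All 3 genes encode type II cadherins of neural tissue.

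*Cdh6*, a type II cadherin of the kidney and of the neural folds, was the lowest type II gene above the threshold. It had 1.76 and 1.60 FPKM in A and 3.67 and 4.31 FPKM in B, so both B libraries were again the higher ones. The other 5 type II members had means from 0.0185 FPKM in *Cdh9* to 0.381 FPKM in *Cdh5*. *Cdh5*, the vascular cadherin, had 0.130, 0.126, 0.266 and 1.0 FPKM. The summed level of the 10 endothelial markers was also highest in B2, at 1.71, 1.55, 2.78 and 6.17 FPKM, and its part in the *Cdh5* value was not tested.

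Of the 5 atypical cadherins, which lack the classical tail or have other domain numbers, *Cdh13* alone had a mean above 1 FPKM. *Cdh13* encodes T-cadherin, which is held in the membrane by a lipid anchor. It had 10.6, 11.8, 14.0 and 12.4 FPKM, a mean of 12.2 ± 1.36 FPKM (SD, n = 2), with both B libraries slightly above both A libraries. *Cdh23*, a tip-link protein of the inner ear, had a mean of 0.383 FPKM, and *Cdh17*, a cadherin of the intestine and liver, had 0.201 FPKM. *Cdh26* and *Cdh16* were listed at 0 in at least 2 libraries each.

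**Figure D1:**
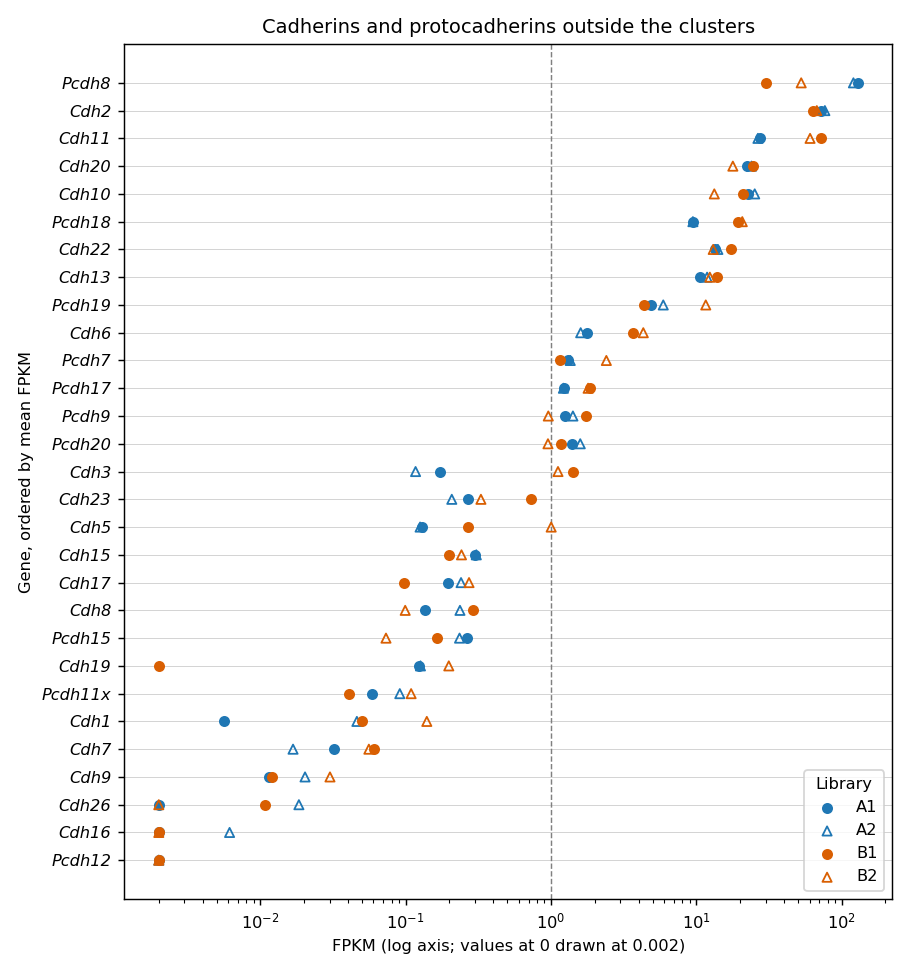
FPKM (x axis, log scale, values at 0 drawn at 0.002) of the 29 cadherins and protocadherins outside the clusters in each of the 4 libraries, with replicate A in blue and replicate B in orange and the second technical library as an open triangle. *Cdh2* has its 4 points close together between 63.6 and 76.5 FPKM, whereas *Pcdh8*, *Cdh11* and *Pcdh18* show A and B apart, and 15 genes lie below the dashed line at 1 FPKM by their means.

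*Cdh2* took 42.0% and 42.3% of the summed FPKM of all 19 cadherins in A1 and A2, and 29.1% and 35.0% in B1 and B2. *Cdh11* took 15.9% and 14.6% in A, and 32.8% and 31.5% in B. The ratio of *Cdh2* to *Cdh11* was therefore 2.76 in replicate A and 0.989 in replicate B. N-cadherin mRNA led by a wide margin in A, and the pair was level in B. The shift came mainly from *Cdh11*, since the replicate means of *Cdh2* were 74.3 and 65.5 FPKM and those of *Cdh11* 26.9 and 66.2 FPKM.

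Among the protocadherins outside the clusters, the 4 members of the delta-2 group that were analysed here all had a mean above 1 FPKM. *Pcdh8*, which is related to the paraxial protocadherin of the frog embryo, was the highest, at 62197060 to 62200837 of chromosome 15 (rn6, minus strand). It had 128 and 120.3 FPKM in the A libraries, and 30.2 FPKM in B1 and 52.6 FPKM in B2. Both A libraries were far above both B libraries, and the mean was 82.9 ± 58.7 FPKM (SD, n = 2). The replicate mean of A was 3.0-fold that of B, and on the log2(FPKM + 1) scale B minus A was -1.62.

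*Pcdh18*, a delta-2 protocadherin of the embryonic brain, is found at 138820183 to 138833865 of chromosome 2 (rn6, minus strand). It had 9.50 and 9.46 FPKM in the A libraries and 19.4 and 20.7 FPKM in the B libraries, a mean of 14.8 ± 7.47 FPKM (SD, n = 2). The technical libraries were close to each other in both replicates, and B was 2.11-fold A. The difference, 1.01 on the log2 scale, was just past the size of 1 that was counted, and without library B2 it was 0.96 and was not counted. *Pcdh19*, the X-linked gene of an epilepsy that mainly affects girls, had 4.88, 5.91, 4.34 and 11.6 FPKM, a mean of 6.68 ± 1.82 FPKM (SD, n = 2). Its high value was that of B2 alone, and the replicates overlapped. *Pcdh17* had 1.23 and 1.22 FPKM in A and 1.87 and 1.80 FPKM in B.

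The promoters of *Pcdh8* and *Pcdh18* are shown because these protocadherins differed in opposite directions between the replicates. No promoter window was found for *Cdh11*, the other differing member. A part of these sequences in the difference between A and B was not tested. Each is the 250 bases before the start of the gene in RefSeq (GRCr8), read on the minus strand from chr15:61612091-61612340 for *Pcdh8* and from chr2:135996827-135997076 for *Pcdh18*. Capitals mark TATAAA and ATTGG, the latter being CCAAT on the opposite strand.
Pcdh8: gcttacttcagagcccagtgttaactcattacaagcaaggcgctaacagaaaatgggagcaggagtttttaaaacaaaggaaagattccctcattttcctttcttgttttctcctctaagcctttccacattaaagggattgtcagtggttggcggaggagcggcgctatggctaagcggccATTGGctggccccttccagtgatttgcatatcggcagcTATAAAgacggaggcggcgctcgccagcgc
Pcdh18: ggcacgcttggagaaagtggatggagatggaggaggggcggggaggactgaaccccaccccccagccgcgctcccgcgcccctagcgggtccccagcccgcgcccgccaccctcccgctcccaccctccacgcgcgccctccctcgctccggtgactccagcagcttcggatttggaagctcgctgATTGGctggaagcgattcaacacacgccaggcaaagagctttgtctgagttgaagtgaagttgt

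The *Pcdh8* window had TATAAA beginning 30 bases before the start, ATTGG beginning 68 bases before it, 11 CG dinucleotides and 50% G and C. The *Pcdh18* window had ATTGG beginning 64 bases before the start, no TATAAA, 20 CG dinucleotides and 66% G and C. Both therefore held a CCAAT box letter for letter at a like distance from the RefSeq start. The windows differed in the TATA letters and in the density of CG. The paper used Start-seq to move many RefSeq starts of rn6, and the starts used here were not checked in that way. The 33469 promoters of the table had a median of 5 CG dinucleotides and of 51.2% G and C. On either strand TATAAA was found in 12.9% of them and CCAAT in 34.0%. These matches describe letters only and were not tied to binding of any factor.

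The members analysed here of the delta-1 group, and the remaining protocadherins, were low. *Pcdh7* had 1.31, 1.36, 1.14 and 2.40 FPKM, a mean of 1.55 ± 0.310 FPKM (SD, n = 2), and *Pcdh9* had a mean of 1.34 ± 0.0156 FPKM (SD, n = 2), while *Pcdh11x*, the X-linked member of this group, had 0.0747 FPKM. *Pcdh20* had 1.39 and 1.59 FPKM in A and 1.17 and 0.952 FPKM in B. *Pcdh15*, the partner of *Cdh23* in the tip links of hair cells, had a mean of 0.184 FPKM. *Pcdh12*, a protocadherin of blood vessels, was the member listed at 0 throughout.

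The clustered protocadherins lay together in 1020 kb of chromosome 18, at 29951094 to 30971115 (rn6, plus strand). *Pcdha* took 265 kb, *Pcdhb* 215 kb and *Pcdhg* 163 kb. In the tables all 15 *Pcdha* genes ended within 2 bp of each other and overlapped, and so did all 13 *Pcdhg* genes. In these clusters each first exon has its own promoter and is joined to last exons that the cluster shares. Reads from the shared exons can belong to any gene of the cluster, so the level of a single *Pcdha* or *Pcdhg* gene is uncertain. The 11 *Pcdhb* genes, which are single-exon genes, did not overlap, and each spanned 2340 to 3375 bp.

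A mean of at least 1 FPKM was reached by 16 of the 39 clustered members, with 0 of 15 in *Pcdha*, 5 of 11 in *Pcdhb* and 11 of 13 in *Pcdhg*. The summed level of *Pcdhg* was 309.9, 357, 291 and 293 FPKM in A1, A2, B1 and B2, a mean of 313 ± 29.6 FPKM (SD, n = 2). That was 49.5% of the summed level of all 68 members. The summed level of *Pcdhb* was 13.4 ± 1.09 FPKM and that of *Pcdha* 3.99 ± 0.140 FPKM (SD, n = 2). *Pcdhg* was thus above *Pcdhb*, and *Pcdhb* above *Pcdha*, in each of the 4 libraries.

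*Pcdhga8* and *Pcdhgc3* held between 91.0% and 94.3% of the summed *Pcdhg* level in each library. *Pcdhga8* (chromosome 18, 30874873 to 30971113) had 187 and 221 FPKM in the A libraries and 167 and 156 FPKM in the B libraries, a mean of 183 ± 30.3 FPKM (SD, n = 2), the highest value listed for any member. *Pcdhgc3* (30954552 to 30971113) had 105 and 112 FPKM in the A libraries and 107 and 110.4 FPKM in the B libraries, a mean of 109 ± 0.153 FPKM (SD, n = 2). *Pcdhga8* was above *Pcdhgc3* in every library, by between 1.41-fold in B2 and 1.98-fold in A2. *Pcdhgc3* was almost level across the libraries, while *Pcdhga8* was higher in both A libraries than in either B library.

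The other 11 *Pcdhg* genes summed to 21.5 ± 0.506 FPKM (SD, n = 2), and their means ran from 0.411 FPKM in *Pcdhga9* to 3.23 FPKM in *Pcdhga12*. These genes were all below every library of *Pcdhga8*, in the middle of the gene order, and of *Pcdhgc3*, at its far end. How the reads of the shared last exons were divided among the 13 genes cannot be seen from the tables, so the values of *Pcdhga8* and *Pcdhgc3* may hold signal of the whole cluster, and their rank among the members and their order are uncertain.

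In *Pcdhb* the highest gene was *Pcdhb20*, at 5.18 and 6.21 FPKM in A and 3.46 and 3.68 FPKM in B, a mean of 4.63 ± 1.5 FPKM (SD, n = 2). Its A libraries were both above its B libraries, by less than the size counted as a difference. The other *Pcdhb* genes had means from 0.155 FPKM in *Pcdhb2* to 1.64 FPKM in *Pcdhb10*. *Pcdhb4* was just inside the threshold of 1 FPKM, at 1.07, 0.956, 1.24 and 1.39 FPKM. *Pcdhac2*, the highest *Pcdha* gene and the last in its order, was just outside it, at 0.627, 1.47, 0.401 and 1.48 FPKM. For *Pcdhac2* the technical libraries of one replicate differed more than the replicates did. The other 14 *Pcdha* genes had means from 0.0177 FPKM in *Pcdhac1* to 0.649 FPKM in *Pcdha4*.

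**Figure D2:**
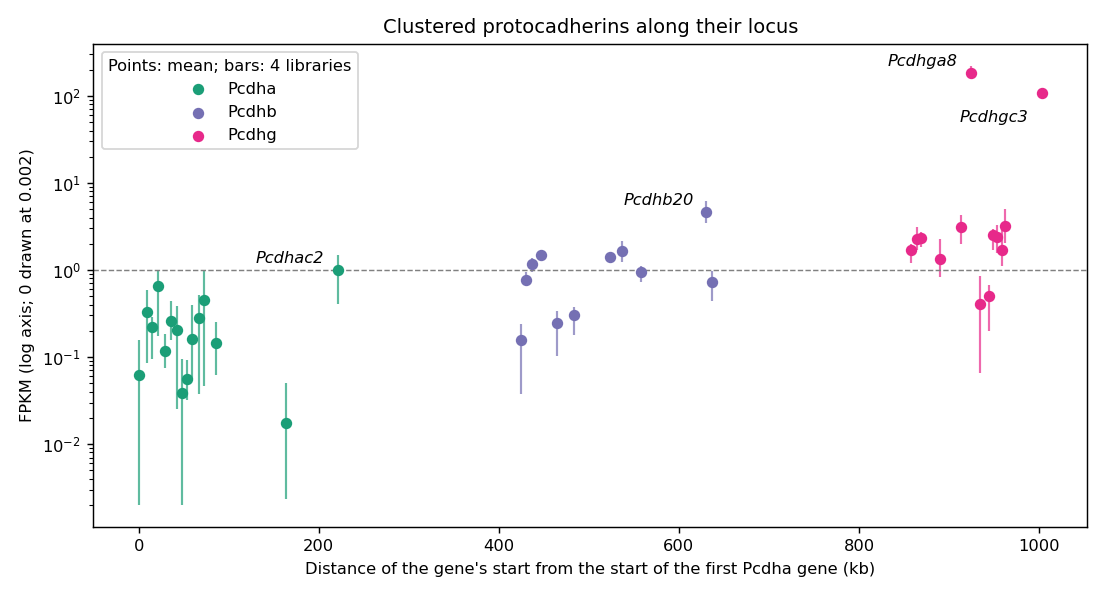
Mean FPKM (y axis, log scale, points) of the 39 clustered protocadherins against the distance of each gene's start from the start of the first *Pcdha* gene (x axis, kb), with bars from the lowest to the highest of the 4 libraries and the dashed line at 1 FPKM. *Pcdhga8* at 183 and *Pcdhgc3* at 109 FPKM stand above all others, and all *Pcdha* means lie below the line.

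The promoters of the clustered genes are known to share a conserved element with the letters CGCT at its core. A window of 250 bases was found in RefSeq (GRCr8) for 43 of the 68 members, 24 of them clustered. The only *Pcdha* window was that of *Pcdha4*, so the other *Pcdha* promoters were not examined. CGCT was present on either strand in 23 of the 24 clustered windows, or 95.8%, including 11 of 11 in *Pcdhb* and 11 of 12 in *Pcdhg*. It was present in 14 of 19 members outside the clusters, or 73.7%, and in 55.1% of all 33469 promoters. These are 4 letters that occur often by themselves, and overlaps between the searched motifs were not removed. *Pcdhgc3* had 26 CG dinucleotides in its window, the most among the clustered members with a window, and *Pcdhga8* had 9, beside a median of 6.

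**Figure D3:**
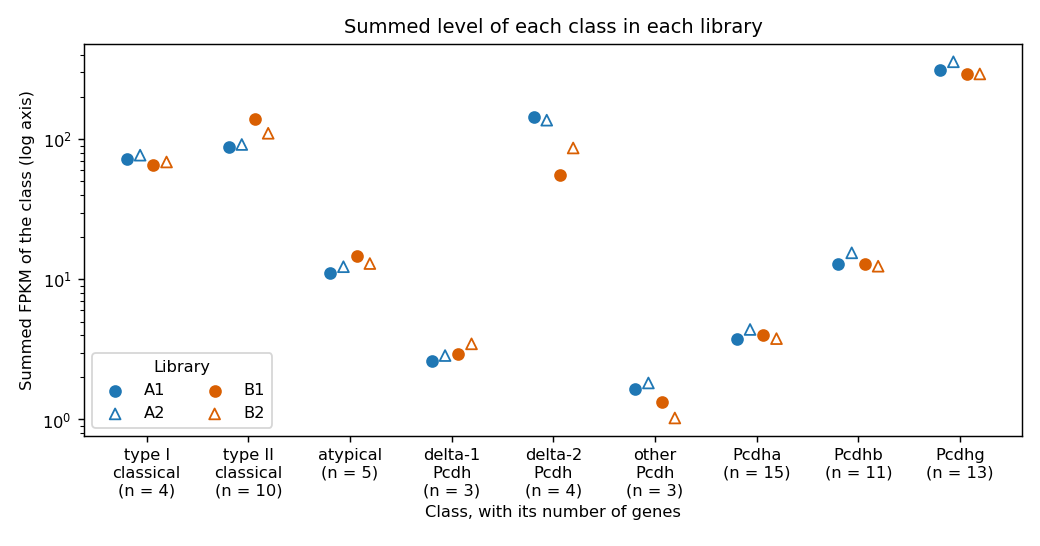
Summed FPKM (y axis, log scale) of each class of members in each library (x axis, classes with their number of genes), with replicate A in blue, replicate B in orange and the second technical library as an open triangle. *Pcdhg* is highest in every library, the delta-2 sums are 144 and 137 FPKM in A against 55.8 and 86.7 FPKM in B, and the type II sums are 88.0 and 91.8 FPKM in A against 139 and 110.4 FPKM in B.

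By class, the type I cadherins summed to 70.9 ± 5.41 FPKM, the type II cadherins to 107 ± 24.5 FPKM and the atypical cadherins to 12.8 ± 1.54 FPKM (SD, n = 2). The protocadherins outside the clusters summed to 110.3 ± 49.0 FPKM (SD, n = 2), most of it from *Pcdh8*. Of the classes that summed to over 10 FPKM, the type II and delta-2 classes, in which *Cdh11* and *Pcdh8* stand, had the widest spread between A and B for their size. In the order of mean levels, the replicate means of 56 of the 67 neighbouring pairs of members overlapped, so that most neighbours did not differ beyond their spread. Among the highest members the steps without overlap were *Pcdhga8* above *Pcdhgc3*, *Cdh11* above *Cdh20*, *Cdh22* above *Cdh13* and *Cdh13* above *Pcdh19*.

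Replicates A and B were then compared by size. A member was counted as differing where its mean was at least 1 FPKM, the log2(FPKM + 1) averages of A and B differed by at least 1, and the libraries of A and B did not overlap. Of the 30 members at 1 FPKM or more, 3 met this rule, against 6.15% of the 10481 gene names at that level. *Cdh11* and *Pcdh18* were higher in B, where 4.58% of all names met the rule, and *Pcdh8* was higher in A, where 1.57% did. The count was 2 without library B2. It is small, and nothing particular to the family was read from it. The libraries of A and B did not overlap in 15 of the 30 members, or 50%, against 60.1% of all names.

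The family as a whole did not lean to one replicate, with 14 members higher in A and 16 higher in B. The median difference, B minus A, was 0.01 on the log2 scale over the 30 members and -0.03 over all names at 1 FPKM or more. The median absolute difference between technical libraries was 0.10 in A and 0.28 in B, and that between the replicates was 0.21. The difference between replicates was larger than both technical differences in 12 of the 30. None of the 16 clustered members at 1 FPKM or more met the rule, beside 6.15% of all names, a share at which a count of 0 among so few genes is not a result about them, and their differences ran from -0.55 to 0.55. *Cdh6* was just outside the rule at 0.90, and *Cdh3* had 0.99 but a mean of 0.707 FPKM, below the level required.

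**Figure D4:**
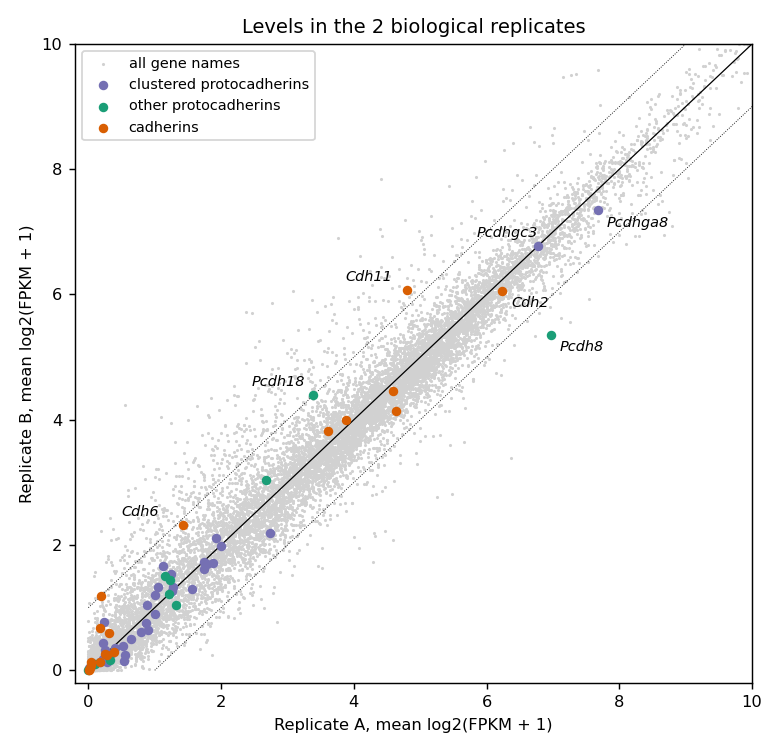
Average log2(FPKM + 1) of replicate B (y axis) against replicate A (x axis) for all gene names up to 10 on that scale (grey) and for the cadherins, the clustered and the other protocadherins (coloured), with a line of equality and dotted lines at a difference of 1. *Cdh11* lies above the upper dotted line and *Pcdh18* at it, *Pcdh8* lies below the lower one, and *Cdh2* and *Pcdhgc3* lie near the line of equality.

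Cell type markers also differed between the replicates, some toward A and some toward B. A differing member therefore shared its direction with some marker list whichever way it went, and nothing was read from that. Of the 10 meningeal and mesenchymal markers, 8 met the rule in the direction of B, beside 4.58% of all names, and all 10 were higher in B, with a median difference of 1.79. The *Cdh11*, *Pcdh18*, *Cdh6* and *Cdh3* values were higher in the same replicate. Of the 10 neural progenitor markers, 2 met the rule, *Fabp7* and *Hes5*, both higher in A as *Pcdh8* was, beside 1.57% of all names. Of the whole list 7 were higher in A and 3, *Nes*, *Vim* and *Slc1a3*, were higher in B, and the median was -0.42. Of the 10 epithelial and choroid markers only *Ttr* and *Otx2* had a mean of at least 1 FPKM. Both were higher in A, and the sums of that list were 106 and 107 FPKM in A and 45.3 and 5.01 FPKM in B, with *Otx2* listed at 0 in B2. The 8 oligodendrocyte lineage markers summed to 269, 294, 705 and 364 FPKM, and *Pdgfra* alone among them met the rule, higher in B. The 10 neuron markers had sums of 229, 257, 199 and 251 FPKM, and none met the rule. The part of these cell types in the values of the members was not tested.

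The catenins link classical cadherins to actin. All 8 in the tables were above a mean of 1 FPKM, led by *Ctnnb1* (beta-catenin) at 257 ± 28.9, *Arvcf* (a p120-related catenin) at 144 ± 50.0 and *Ctnna1* (alpha-catenin) at 140.0 ± 3.69 FPKM (SD, n = 2). *Jup*, the gene of plakoglobin, was the only one that met the rule, and 1 of 8 is near the 6.15% of all names for so short a list. It had 14.3 and 15.1 FPKM in A and 34.7 and 47.4 FPKM in B, a difference of 1.41 on the log2 scale. The 7 desmosomal genes in the tables all had means below 1 FPKM, and *Dsc3* and *Dsg4* were listed at 0 in every library.

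The Snail, Zeb and Twist list holds repressors of the E-cadherin gene and their partners. Of its 9 genes, 8 had a mean of at least 1 FPKM, with *Tcf3* at 153, *Tcf4* at 152 and *Zeb1* at 112 FPKM as the highest. *Snai1*, *Snai2*, *Twist1* and *Twist2* met the rule, and all 4 were higher in B, beside 4.58% of all names. *Snai1* had 8.58 and 9.59 FPKM in A and 19.6 and 28.2 FPKM in B, and *Twist1*, which is also among the mesenchymal markers, had 18 and 20.1 FPKM in A and 51.5 and 67.1 FPKM in B. *Snai2* had replicate means of 0.624 and 6.73 FPKM, and *Twist2* of 2.04 and 6.87 FPKM. *Cdh1* was below 0.2 FPKM in every library, with 0.0056 and 0.0461 FPKM in A and 0.0504 and 0.140 FPKM in B. Values this near 0 rest on few reads and cannot show a lower level in either replicate, and a link between *Cdh1* and these genes was not tested.

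**Figure D5:**
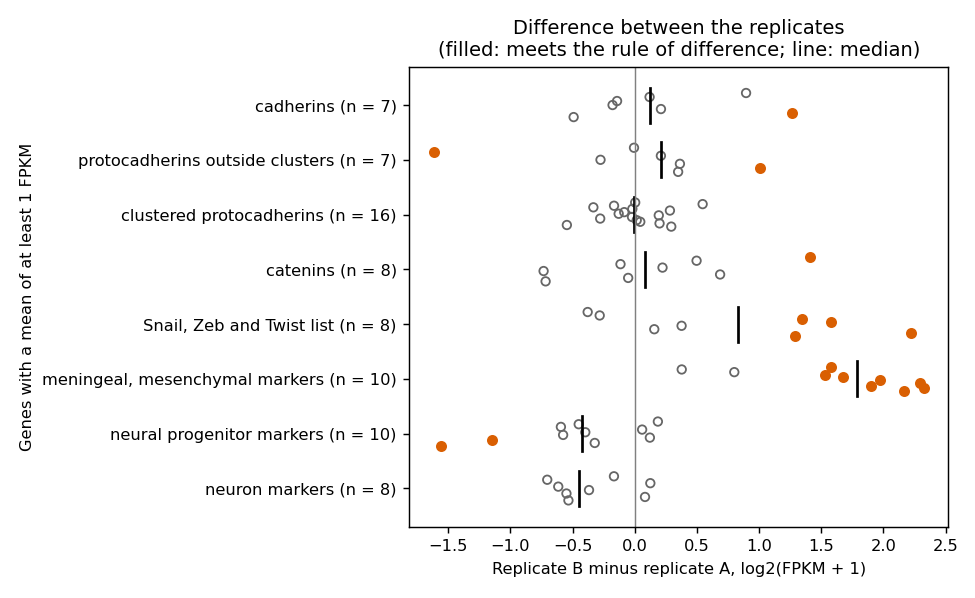
Difference between replicates (x axis, B minus A, log2(FPKM + 1)) of each gene with a mean of at least 1 FPKM, by gene group (y axis, with the number of genes), where filled points meet the rule of difference and vertical lines are medians. The cadherins and protocadherins scatter around 0 with 3 filled points, whereas the mesenchymal markers have a median of 1.79 and 8 filled points to the right.

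Other members of the cadherin superfamily include the Fat and Dachsous giants, the flamingo (Celsr) receptors and the calsyntenins. Of 13 in the tables, 9 had a mean of at least 1 FPKM, led by *Clstn1* at 74.3, *Fat1* at 30.3 and *Dchs1* at 21.9 FPKM. *Celsr2*, of planar polarity, and *Fat3* met the rule, and both were higher in A, beside 1.57% of all names. *Celsr2* had 24.7 and 17.9 FPKM in A and 8.15 and 11.8 FPKM in B, and *Fat3* had 3.72 and 4.41 FPKM in A and 0.926 and 1.55 FPKM in B. *Clstn1* had a mean near that of *Cdh2* and did not meet the rule.

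None of the genes in the remaining 4 lists met the rule, which 6.15% of all names did, and nothing particular to these lists was read from that. The nectins and junction scaffolds had 9 of 10 genes above 1 FPKM, with *Tjp1* at 56.1, *Vcl* at 36.5 and *Pvrl2* at 24.9 FPKM as the highest. The proteases that cut cadherins from the surface and within the membrane had 9 of 9, with the gamma-secretase subunits *Psenen* at 282 and *Ncstn* at 73.5 FPKM and the matrix protease *Mmp14* at 44.8 FPKM. The genes that act on promoter choice in the protocadherin clusters had 10 of 10, led by the cohesin subunits *Rad21* at 50.8 and *Smc3* at 43.5 FPKM and the histone methyltransferase *Setdb1* at 33.2 FPKM. The protocadherin effectors, which include the WAVE complex, had 11 of 12, with *Ppp1ca* at 220.5, *Brk1* at 120.3 and *Fyn* at 71.1 FPKM.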

How the data were processed

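PolyA RNA-seq libraries were aligned by the authors with STAR to rn6. The deposited tables have the StringTie layout and hold coverage (a signal not scaled for depth), FPKM and TPM per gene, used as deposited by the authors. The paper's methods name Rsubread and DESeq2 for FPKM without saying that these tables were made so, and the submitters' processing notes name HISAT, STAR, StringTie and cutadapt. Which tool made the tables, and the versions, are not given in the sources used here. Replicates follow the sample labels, which do not say what separated A from B, and a list in the paper can be read as grouping the libraries otherwise. Under the labels' grouping the A and B libraries did not overlap for 60.1% of names at 1 FPKM or more.

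FPKM was summed over rows of 1 gene name. Library totals were not used, and depth was compared through coverage per FPKM. A pseudocount of 1 was used on the log2 scale, which understates differences of low genes. The counting was tested on simulated data. Members, gene lists and rules were chosen with earlier results of these data known. Named members were the 10 highest, those that differed, the highest of each class and those nearest the threshold of 1 FPKM, and some others were named after their values were seen. Named list genes were the 3 highest and those that differed. Alternatives were other thresholds, pseudocounts, filters, TPM, scaling, and libraries left out. Promoters came from RefSeq (GRCr8), where 54 of 68 members matched a gene and 43 had a sequence. Python 3.11.15 with pandas 2.3.3, numpy 2.4.6 and matplotlib 3.10.9 was used.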

Additional observations from a re-analysis of the deposited data

Results flagged for a closer look

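Of 42 values examined over the 4 libraries, 4 had 1 library far from the others, 3 of them in B2, where chance gives about 1 in 20 for independent samples and the libraries here form technical pairs. *Pcdh7* had 2.40 FPKM in B2 and 1.14 to 1.36 FPKM in the others. *Cdh5* had 1.0 FPKM in B2 and 0.126 to 0.266 FPKM in the others. The summed *Pcdhb* level was 15.5 FPKM in A2 and 12.4 to 12.9 FPKM in the others. Coverage per FPKM was 6.83 in B2 and 22.7 to 24.4 in the others.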

How the results depend on the processing

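With 2 biological replicates in 1 condition there was no test, and depth limits the members below 1 FPKM most in B2. Of 166 alternative values for 20 results, 20 moved and 2 fell short of the rule. The others are no measure of stability, since a mean of 2 replicates cannot move past its SD when 1 is left out and filters leave a gene's own difference as it is. The 3 differing members kept their direction, while the median difference over members, at 0.01, ran from -0.06 to 0.14 as libraries were left out. At 5 FPKM 11 members and 2 clustered ones remained above the threshold. With *Pcdha* and *Pcdhg* left out, an alternative chosen after seeing the data, 19 members were at 1 FPKM or more. TPM, which is on another scale by construction, gave sums of 119 for type I, 179 for type II, 21.4 for atypical, 186 for non-clustered protocadherins, 6.69 for *Pcdha*, 22.5 for *Pcdhb* and 525 for *Pcdhg*, and means of 307 for *Pcdhga8*, 182.1 for *Pcdhgc3*, 117 for *Cdh2* and 77.6 for *Cdh11*. With 1 library left out in turn, the *Pcdha* sum ran from 3.84 to 4.14 FPKM and *Pcdhgc3* from 106.9 to 110.1 FPKM. With replicate A or B left out, larger moves were seen for *Pcdh8* (41.4 and 124 FPKM), *Cdh11* (66.2 and 26.9 FPKM) and the non-clustered protocadherin sum (75.6 and 144.9 FPKM). *Pcdh18* fell short of the rule with TPM (0.99), where *Cdh3* met it, and without B2 (0.96), where 2 members differed. *Cdh6* was added, giving 4 of 30 members, with a pseudocount of 0.1, where 894 of all names (8.53%) differed, and also at a log2 difference of 0.58, where 1732 (16.5%) did in place of 645 (6.15%). At a mean of at least 10 FPKM 329 of 6636 names did, since fewer names were eligible.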
